A study of Mus musculus with 6 samples.

Results

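Microglia are the resident macrophages of the brain, and a small circuit of transcription factors sets them apart from other cells. PU.1, encoded by Spi1, is the master regulator of the myeloid lineage. Runx1 and the C/EBP factors act with it during myelopoiesis and in mature macrophages, and the MEF2 factors join PU.1 at microglial enhancers. Sall1 and Sall3 are zinc finger factors of the Spalt-like family, and Sall1 maintains the resting identity of microglia, which depends on TGFβ signals in the brain. Maf is a large basic leucine zipper factor of tissue macrophages. The 9 genes Spi1, Sall1, Sall3, Mef2a, Mef2c, Runx1, Maf, Cebpa and Cebpb were taken by symbol from the 55401 Ensembl gene identifiers of the count table, and all 9 had enough counts to be tested.

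The libraries came from CD11b-selected brain cells of untreated mice aged 6 weeks. There were 3 libraries of MRL/lpr, the lupus-prone strain that carries the lpr mutation of Fas, and 3 of MRL/mpj, the control strain without it. CD11b is a surface protein of myeloid cells in general, so microglia were enriched but other myeloid cells could be retained. The labels do not say whether a library is 1 animal or a pool, so the tests measure the spread between these preparations.

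Libraries held 45481609 to 48199739 counts for MRL/lpr and 47826322 to 49846634 for MRL/mpj. No factor had fewer than 1857 counts in any library. Csf1r, the growth factor receptor of microglia and macrophages, had 439669 to 516509 counts, and Tmem119, a microglial surface protein gene, had 99987 to 132885 counts. Both genes were thus abundant in each library, but their counts do not show how pure the microglia were. Fas had 282 to 461 counts in MRL/lpr and 362 to 432 in MRL/mpj, with a log2 fold change of -0.06 (edgeR adjusted p = 0.887). The Fas counts therefore did not bear out the strain labels, and how the lpr mutation acts on these counts was not tested. Xist had 8886 to 11319 counts in MRL/lpr against 27 to 38 in MRL/mpj, while the study's methods describe female mice and the labels give no sex, so strain and whatever goes with Xist cannot be told apart. MRL/lpr replicate 3 stood apart in that 6.38% of its counts fell on CT010467.1, beside at most 0.457% elsewhere. The mitochondrial share per library was 3.06% to 3.49% for MRL/lpr, below the 5.84% to 6.38% for MRL/mpj. This share separated the strains, and its part in the differences reported here was not tested.

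In the MRL/lpr libraries, 2 genes of the circuit differed by more than 2-fold and passed the test, in opposite directions. Cebpb, a C/EBP factor induced in inflammation, was 2.12-fold higher in MRL/lpr, and Sall3 was 3.26-fold lower. Runx1 was 1.22-fold higher and passed the test by a small margin. The other 6 factors did not pass, and among them Spi1, Sall1, Mef2a, Maf and Cebpa had log2 fold changes between -0.15 and 0.17. In all, 2 factors were higher and 1 was lower in the quasi-likelihood test of edgeR (Benjamini-Hochberg adjusted p below 0.05 over 19554 genes, of which 11.1% were higher and 9.06% were lower, 20.2% in either direction). With a minimum of 2-fold added, 1 was higher and 1 lower, beside 8.34% of all genes tested in either direction. The median log2 fold change was 0.15 for the 9 factors and -0.01 for all genes tested. For 6 of the 9 factors every MRL/lpr library lay on 1 side of every MRL/mpj library in CPM, as it did for 39.0% of all genes tested. In bulk libraries, fewer cells of a type and less RNA per cell cannot be told apart.

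Promoter sequences of 6 of the 9 factors were found in RefSeq (GRCm38.p6), each with 250 bases before and 50 bases after an annotated start. No entry was found for Spi1, Maf and Sall3. Shown here are the 2 genes that rose, Cebpb and Runx1, beside Cebpa, the relative of Cebpb that did not pass, and Mef2a, whose promoter holds letters that match PU.1 and MEF2 motifs. Matches to 5 motifs searched on both strands are in capitals. They are GAGGAAG for PU.1, TTGCNNAA for C/EBP, CTA and TAG with 4 bases between them for MEF2, TGTGGTT for RUNX and TGCTGAC for MAF, and none of the capitals printed overlap each other. The sequences run 5′ to 3′ on the strand of the gene.
Cebpb (chr2:167688665-167688964, plus strand): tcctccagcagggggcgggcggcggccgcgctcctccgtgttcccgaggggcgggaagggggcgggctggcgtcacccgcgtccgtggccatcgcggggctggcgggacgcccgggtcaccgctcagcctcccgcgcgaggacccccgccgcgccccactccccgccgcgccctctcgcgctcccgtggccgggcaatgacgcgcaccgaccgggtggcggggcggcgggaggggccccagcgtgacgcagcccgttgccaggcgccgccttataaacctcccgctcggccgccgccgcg
Cebpa (chr7:35119043-35119342, plus strand): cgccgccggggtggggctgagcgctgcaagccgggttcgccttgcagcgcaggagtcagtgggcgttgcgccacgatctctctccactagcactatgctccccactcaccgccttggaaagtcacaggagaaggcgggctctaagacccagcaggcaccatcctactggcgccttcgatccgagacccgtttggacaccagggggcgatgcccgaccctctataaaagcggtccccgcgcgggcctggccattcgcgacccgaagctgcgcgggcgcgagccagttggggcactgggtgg
Runx1, distal start (chr16:92826025-92826324, minus strand): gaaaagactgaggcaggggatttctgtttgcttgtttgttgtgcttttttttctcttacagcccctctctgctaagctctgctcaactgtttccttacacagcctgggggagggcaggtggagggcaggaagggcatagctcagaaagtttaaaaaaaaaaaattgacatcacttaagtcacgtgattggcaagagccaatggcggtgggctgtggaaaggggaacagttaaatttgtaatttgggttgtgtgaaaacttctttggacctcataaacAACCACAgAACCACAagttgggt
Mef2a (chr7:67372809-67373108, minus strand): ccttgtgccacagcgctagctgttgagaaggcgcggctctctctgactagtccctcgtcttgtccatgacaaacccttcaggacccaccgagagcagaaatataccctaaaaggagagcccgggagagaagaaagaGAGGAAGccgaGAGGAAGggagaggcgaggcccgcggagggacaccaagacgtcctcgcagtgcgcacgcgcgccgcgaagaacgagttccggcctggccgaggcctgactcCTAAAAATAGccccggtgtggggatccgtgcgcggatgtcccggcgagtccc

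The Mef2a promoter held 2 PU.1 matches before its start site and 1 MEF2 match across it, and the distal Runx1 promoter held 2 RUNX matches in reverse orientation just after its start site. Of the 3 Mef2c windows, the one at chr13:83523406-83523705 held 1 PU.1 match. The other Mef2c and Runx1 windows and those of Cebpb, Cebpa and Sall1 held no match to any of the 5 motifs. Of the 32851 promoters in the table, 13.6% held the PU.1 motif, 10.8% the C/EBP motif, 5.27% the RUNX motif, 4.67% the MAF motif and 3.69% the MEF2 motif. The Cebpb window was 80.7% G and C, the Cebpa window 67.3% and that of Mef2a 62.3%. The distal Runx1 window was at 45% and the other Runx1 window at 69.0%. Sall1 windows ran from 57.3% to 79.7% and Mef2c windows from 35.7% to 48.3%. The median over all promoters was 52.7%. A match describes the letters of this window and does not show that a factor binds there.

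Levels were compared between genes with the deposited FPKM values, which are per gene length and depth. Cebpa ranked first in both strains, at 192 FPKM in MRL/lpr and 189 FPKM in MRL/mpj on average. In the MRL/mpj libraries Sall1 followed with 133 FPKM, then Cebpb with 64.0, Spi1 with 59.5, Mef2a with 34.6, Maf with 32.9, Sall3 with 16.9, Mef2c with 6.55 and Runx1 with 5.61 FPKM. Cebpb and Spi1 overlapped between libraries of MRL/mpj, as did Mef2a and Maf, whereas the other neighbours in this order did not. In the MRL/lpr libraries Cebpb moved up beside Sall1, with 116 to 131 FPKM against 109 to 116 FPKM, and Sall3 moved to the last place with 4.75 FPKM. Each factor except Sall3, Mef2c and Runx1 lay at or above the 95.5th percentile of listed genes by FPKM in each library.

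**Figure D1:**
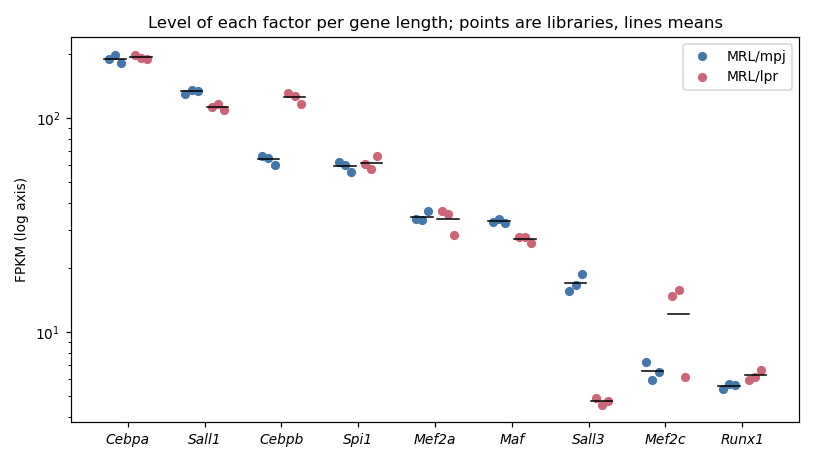
FPKM on a log axis for the 9 factors, ordered by their MRL/mpj mean. Points are the 3 libraries of each strain and black lines are means. Cebpa is at the top in both strains, while Cebpb is higher and Sall3 lower in MRL/lpr.

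PU.1 and Runx1, the factors that open the myeloid programme, were taken first. Spi1 (ENSMUSG00000002111, chr2:91082390-91115756 in GRCm38, plus strand) had 8813, 8395 and 9097 counts in MRL/lpr, beside 9281, 8770 and 8390 in MRL/mpj. On the CPM scale this was 194 ± 20.6 CPM (SD, n = 3) in MRL/lpr and 172 ± 10.01 CPM (SD, n = 3) in MRL/mpj, and the groups overlapped. Its log2 fold change was 0.17 (SE 0.09, edgeR adjusted p = 0.212), and it did not pass in any of the 17 alternative fits. Runx1 (ENSMUSG00000022952, chr16:92601466-92826149, minus strand) had 82.4, 85.1 and 97.1 CPM in MRL/lpr and 70.2, 74.1 and 73.2 CPM in MRL/mpj. Each MRL/lpr library was above each MRL/mpj library, although replicate 3 of MRL/lpr stood above the other two. The log2 fold change of Runx1 was 0.28 (SE 0.08, edgeR adjusted p = 0.0413). The adjusted p was under 0.05 in 8 of the 17 alternative fits and ran from 0.0292 to 0.243. Leaving out MRL/lpr replicate 2 raised it to 0.0711, and leaving out MRL/mpj replicate 1, 2 or 3 raised it to 0.143, 0.105 or 0.106. With a block on the replicate number it was 0.0836.

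Runx1 is also used by lymphocytes and other blood cells. The T cell markers Cd3e, Cd3d, Cd3g, Trac, Cd4, Cd8a and Lck summed to 16.4 to 24.55 CPM in MRL/lpr and to 4.44 to 4.76 CPM in MRL/mpj, and 6 of the 7 rose. The call of Trac was lost in 3 of the 6 fits without 1 library. B cell markers went the other way, at 27.1 to 27.6 CPM in MRL/lpr and 32.6 to 33.5 CPM in MRL/mpj. Of 5 tested, 0 were higher and 1 was lower. The neutrophil markers summed to 579 to 658 CPM in MRL/lpr and 451 to 510 CPM in MRL/mpj, with 3 of 7 higher. Among these calls, Retnlg was lost in 4 and S100a8 in 3 of the 6 fits without 1 library. Monocyte markers overlapped between the strains, at 91.5 to 105.5 CPM in MRL/lpr and 96.9 to 107.9 CPM in MRL/mpj, with 3 of 7 higher and 1 lower. Border macrophage markers summed to 51.4 to 53.0 CPM against 55.5 to 64.4 CPM, with 2 of 7 lower. The calls of Vcan and Mrc1 were lost in 4 and 6 of the 6 fits without 1 library. The part of these cells in the Runx1 and Cebpb differences was not tested.

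The C/EBP factors differed from each other. Cebpb (ENSMUSG00000056501, chr2:167688915-167690418, plus strand) had 10656, 10314 and 8842 counts in MRL/lpr, beside 5537, 5241 and 5080 in MRL/mpj. The lowest MRL/lpr library was well above the highest MRL/mpj library. Scaled, Cebpb was at 219 ± 7.54 CPM (SD, n = 3) in MRL/lpr and 103 ± 5.20 CPM (SD, n = 3) in MRL/mpj, which is 1.08 on the log2 scale (SE 0.07, edgeR adjusted p = 6.64e-06). It passed in all 17 alternative fits, with log2 fold changes from 0.96 to 1.11, the lowest of them under the 2-fold minimum of the study's call rule. Cebpa (ENSMUSG00000034957, chr7:35119293-35121928, plus strand), which directs precursors to the myeloid lineage, had 28062, 27071 and 25143 counts in MRL/lpr and 27428, 27963 and 26543 counts in MRL/mpj. Its log2 fold change was 0.15 (SE 0.06, edgeR adjusted p = 0.126), and it did not pass in any of the alternative fits.

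The balance of the C/EBP factors was read from the counts within a library, which does not depend on the scaling between libraries. Counts of Cebpb were 37.97%, 38.1% and 35.2% of those of Cebpa in the MRL/lpr libraries. In the MRL/mpj libraries they were 20.2%, 18.7% and 19.1%. The mean log2 ratio differed by 0.94 between the strains, and the ratios of the 2 groups did not overlap. An exact two-sided permutation test over libraries gave p = 0.1, the smallest p that 3 libraries against 3 allow, and 0.1 after adjustment over 3 ratios. The gene Tmem189 overlaps Cebpb on the opposite strand. It had 2098 to 2617 counts in MRL/lpr and 2180 to 2757 in MRL/mpj, with a log2 fold change of 0.10 (edgeR adjusted p = 0.625), and whether the authors counted by strand is not given in the sources used here.

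**Figure D2:**
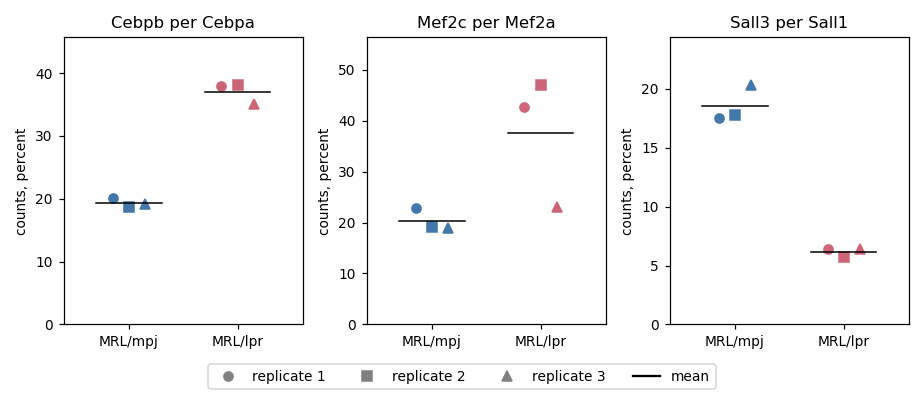
Counts of Cebpb per Cebpa, Mef2c per Mef2a and Sall3 per Sall1, in percent within each library (vertical axes start at 0). Markers are replicates and lines are means. The strains separate for Cebpb and Sall3, while MRL/lpr replicate 3 sits next to the MRL/mpj libraries for Mef2c.

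The MEF2 factors were uneven between libraries. Mef2a (ENSMUSG00000030557, chr7:67231163-67372858, minus strand) had 622, 602 and 508 CPM in MRL/lpr and 532, 526 and 581 CPM in MRL/mpj. The groups overlapped, and its log2 fold change of 0.08 (SE 0.08, edgeR adjusted p = 0.586) turned to -0.04 with scaling by library size only. Mef2c (ENSMUSG00000005583, chr13:83504034-83667080, plus strand) had 12476, 13303 and 4902 counts in MRL/lpr, of which replicate 3 was the low one. The MRL/mpj libraries had 6264, 5024 and 5718 counts. After scaling, MRL/lpr replicate 3 lay at 117 CPM, between the MRL/mpj libraries at 100.5 to 122 CPM. The log2 fold change of Mef2c was 1.002 with a standard error of 0.36 (edgeR adjusted p = 0.131), and without MRL/lpr replicate 3 it was 1.31 with an adjusted p of 2.06e-05. Mef2c also passed with all libraries when the fit was not robust, at an adjusted p of 0.0417. Mef2a lost its lowest MRL/lpr library in the same step and passed without replicate 3, at 0.17 on the log2 scale (adjusted p = 0.0396).

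Such a step in a single library was rare. Among 9298 genes with a mean of at least 10 CPM, 35 fell more than 2-fold below both other MRL/lpr libraries in replicate 3 while those agreed within 1.2-fold. Between 15 and 29 genes did so in each of the other 5 libraries. Mef2c was the only one of the 9 factors with a step of this size in any library. Counts of Mef2c were 42.7%, 46.95% and 23.1% of those of Mef2a in MRL/lpr and 22.9%, 19.1% and 18.9% in MRL/mpj. The lowest MRL/lpr ratio exceeded the highest MRL/mpj ratio by little, and the exact permutation test gave p = 0.1, the smallest it can give.

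The Spalt-like factors gave the largest difference. Sall3 (ENSMUSG00000024565, chr18:80966376-80986771, minus strand) had 2040, 1902 and 1857 counts in MRL/lpr, beside 6583, 6815 and 8000 in MRL/mpj. All 3 MRL/lpr libraries were low and far from the MRL/mpj libraries. The scaled level was 42.7 ± 2.09 CPM (SD, n = 3) against 139 ± 13.1 CPM (SD, n = 3). The log2 fold change was -1.71 (SE 0.09, edgeR adjusted p = 2.37e-06), and it passed in all 17 alternative fits with values from -1.83 to -1.63. Sall1 (ENSMUSG00000031665, chr8:89027235-89044162, minus strand) had 682, 701 and 697 CPM in MRL/lpr and 732, 768 and 757 CPM in MRL/mpj. Each MRL/lpr library lay below each MRL/mpj library, but the log2 fold change of -0.12 (standard error 0.05) had an adjusted p of 0.170 from edgeR. Sall1 passed with scaling by library size only, at -0.24 and an adjusted p of 0.0198, with limma on FPKM, at -0.24 and an adjusted p of 0.0262, and without MRL/lpr replicate 3, at an adjusted p of 0.0495.

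Counts of Sall3 were 6.36%, 5.76% and 6.38% of those of Sall1 in the MRL/lpr libraries and 17.5%, 17.75% and 20.3% in the MRL/mpj libraries. The ratios did not overlap, the mean log2 ratio differed by -1.58, and the exact permutation test gave p = 0.1, the smallest it can give. Markers of choroid plexus and ependyma moved in the same direction as Sall3. Ttr, Folr1, Kl, Clic6, Foxj1, Ccdc153 and Otx2 summed to 359 to 373.5 CPM in MRL/lpr and 1052 to 1136 CPM in MRL/mpj, and 5 of the 7 fell. None of these 7 was at or under 3 counts in all libraries. Astrocyte markers summed to 118 to 164 CPM against 198 to 204.5 CPM with 1 of 8 lower, Slc1a3, a call that was lost in 4 of the 6 fits without 1 library (MRL/lpr replicate 3 or any MRL/mpj replicate). Neuron markers summed to 28.9 to 33.35 CPM against 48.4 to 55.45 CPM with 2 of 10 lower. Neural progenitor markers summed to 56.2 to 61.6 CPM against 91.15 to 104.9 CPM, and of 4 tested Nes fell and Eomes rose. Oligodendrocyte markers overlapped between the strains, with 124 to 146 CPM against 134 to 161 CPM and 2 of 8 lower. Endothelial markers were at 1755 to 1929 CPM against 1612 to 1666 CPM, with 2 of 7 higher and 1 lower. The part of these cells in the Sall3 difference was not tested.

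Maf (ENSMUSG00000055435, chr8:115682942-115707794, minus strand) had 263, 263 and 260 CPM in MRL/lpr and 291, 297 and 286 CPM in MRL/mpj. The groups did not overlap and the libraries of each strain lay close together. The log2 fold change of -0.15 (standard error 0.06) had an adjusted p of 0.0890 from edgeR. It passed at -0.28 with scaling by library size only, at -0.27 with limma on FPKM, and without MRL/lpr replicate 3 at -0.14 with an adjusted p of 0.0363.

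**Figure D3:**
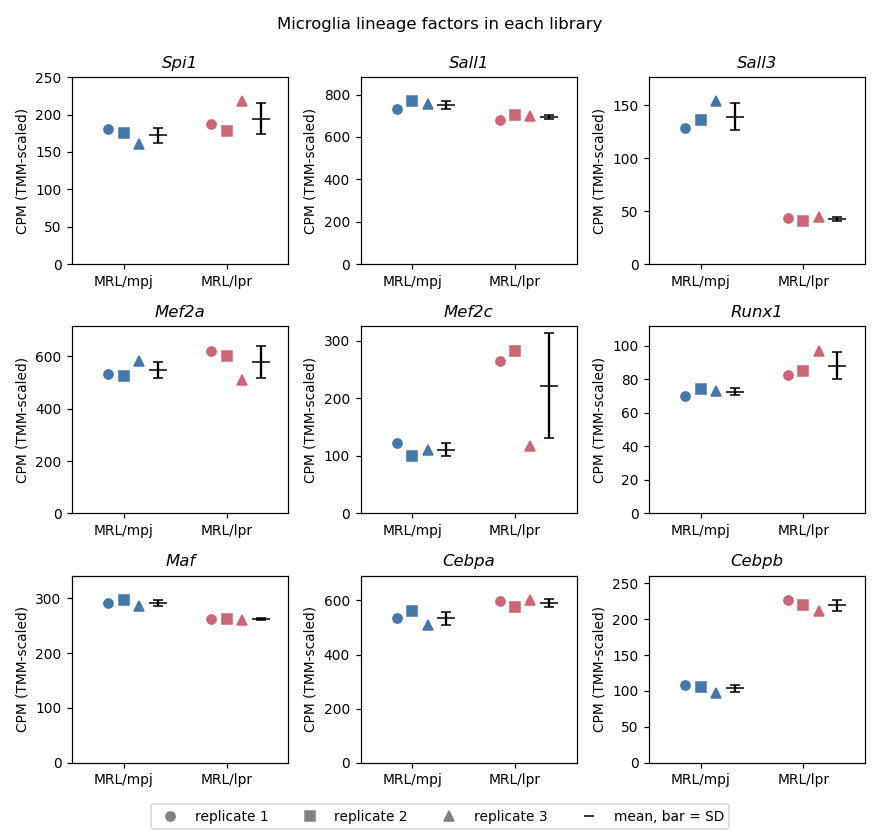
TMM-scaled CPM of each factor by strain, with axes that start at 0. Markers are replicates, and the black dash and bar are the mean and SD of 3 libraries. Cebpb and Sall3 separate widely, and 1 MRL/lpr library of Mef2c lies among the MRL/mpj libraries.

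**Figure D4:**
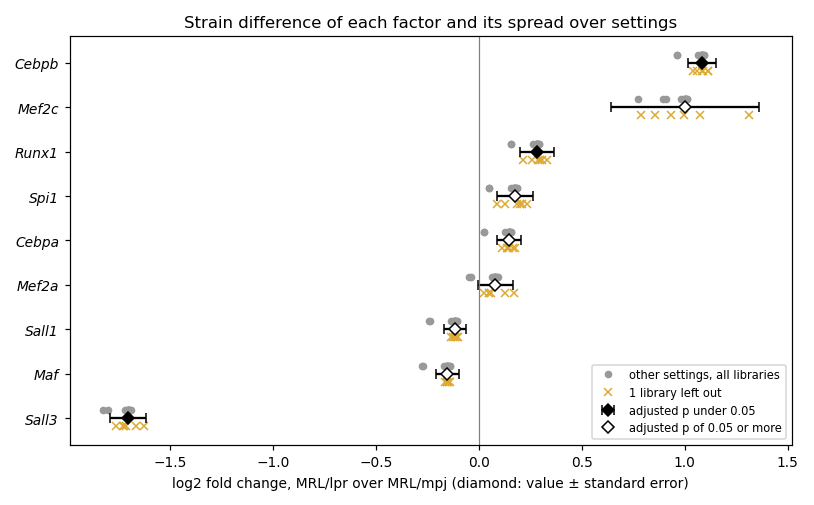
Log2 fold change of MRL/lpr over MRL/mpj for each factor (diamond, with its standard error; filled where the adjusted p was under 0.05). Grey points are other settings with all libraries and crosses are fits without 1 library. Cebpb and Sall3 keep their side of 0 by a wide distance, and the crosses of Mef2c spread from 0.79 to 1.31.

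For each factor that passed, the most similar genes were sought among 200 genes of the lists by Pearson's r of log2 CPM over the 6 libraries. These correlations follow the difference between the strains and are a description. Tnf and Rhob were the most like Cebpb (r = 0.998 for each), and Kl and Fcrls the most like Sall3 (r = 0.996 and 0.993). Flt1 and Ncf4 were the most like Runx1 (r = 0.953 and 0.951).

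Genes related to the factors by family, name or binding partner were compared next, Cbfb and Cebpz among them. Of 19 relatives, 17 were tested, 5 rose and 2 fell, and Sall4 and Nrl had too few counts. The share of tested relatives that passed was 41.2%, beside 20.2% of all genes tested. This list and those below were chosen with earlier results of these data known, and were not matched in level to all genes tested. Their shares are therefore a description. The median log2 fold change of the relatives was 0.49. Runx3, a factor of cytotoxic T cells and other leukocytes, rose by 2.60 log2 units (SE 0.29, edgeR adjusted p = 0.000251) from a low level, with 140 to 185 counts in MRL/lpr and 29 to 33 in MRL/mpj. The T cell markers given above moved with it. Mafk, a small Maf protein without an activation domain, rose by 1.07 on the log2 scale (edgeR adjusted p = 3.38e-06). Mef2d rose by 0.45 and Mafg by 0.37. Cebpg, which pairs with other C/EBP proteins, fell by 0.70 (edgeR adjusted p = 0.00148). Sall2 fell by 0.61 (edgeR adjusted p = 0.0112), and without MRL/mpj replicate 2 its adjusted p was 0.0524. Cebpd had 660 counts in MRL/mpj replicate 1 against 2213 and 2171 in the other MRL/mpj libraries, and its log2 fold change of 1.09 did not pass (edgeR adjusted p = 0.214).

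Among 25 other factors of myeloid cells, 5 rose, 2 fell and 18 did not pass, with a median log2 fold change of 0.19. Thus 28.0% of this list passed, beside 20.2% of all genes tested (11.1% higher and 9.06% lower). Klf4, a zinc finger factor of monocytes, rose by 0.87 (edgeR adjusted p = 0.000152) and Ets2 by 0.71 (edgeR adjusted p = 0.000243). The helix-loop-helix repressor genes Bhlhe40 and Bhlhe41 rose by 0.74 and 0.66. Zeb2 rose by 0.33 (edgeR adjusted p = 0.0454), a call that was lost in each of the 6 fits without 1 library (adjusted p up to 0.165). Irf8, the partner of PU.1 that microglia require, had 24250, 14245 and 14248 counts in MRL/lpr and 11832, 11402 and 23334 in MRL/mpj. The groups overlapped, and its log2 fold change was 0.35 (SE 0.37, edgeR adjusted p = 0.602). MRL/lpr replicate 1 and MRL/mpj replicate 3 were the high libraries for Irf8.

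The signals that feed the circuit and the proteins that act on its factors gave 3 higher and 3 lower genes of 21, with a median log2 fold change of -0.01. These genes were 28.6% of the list, beside 20.2% of all genes tested. Csf1r, the receptor that microglia need to survive and a target of PU.1, had a log2 fold change of 0.07 (edgeR adjusted p = 0.694) and between 439669 and 516509 counts in each library. Tgfb1 and its receptor gene Tgfbr1 had log2 fold changes of -0.12 and -0.15 and did not pass (edgeR adjusted p = 0.507 and 0.234). Il34, a ligand of Csf1r, fell by 0.92 (edgeR adjusted p = 0.0190), from 208 to 261 counts in MRL/mpj to 95 to 126 in MRL/lpr, and did not pass without MRL/lpr replicate 1 or MRL/mpj replicate 3 (adjusted p up to 0.0792). Trib1, a pseudokinase that targets C/EBPα for degradation, rose by 0.94 (SE 0.06, edgeR adjusted p = 4.96e-06), and its relative Trib2 fell by 0.61 (edgeR adjusted p = 0.0337). Trib2 passed in 1 of the 6 fits without 1 library, the one without MRL/mpj replicate 3, and its adjusted p reached 0.138 in the others. Hdac9, a class IIa histone deacetylase that binds MEF2 factors, fell by 1.11 (SE 0.11, edgeR adjusted p = 0.000134), with 426 to 435 counts in MRL/lpr and 1025 to 1079 in MRL/mpj.

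Known targets of the factors were counted last. Of 20 PU.1 targets, 10 rose, 1 fell and 9 did not pass, with a median log2 fold change of 0.17. In either direction 55.0% of these targets passed, beside 20.2% of all genes tested. The oxidase subunit gene Cybb rose by 1.16, the receptor gene Csf2ra by 0.97 and the scavenger receptor gene Msr1 by 0.96. The call of Msr1 was lost when MRL/lpr replicate 2 or MRL/mpj replicate 1 or 2 was left out (adjusted p up to 0.0721). Tyrobp, a signalling adaptor, fell by 0.35, a call that was lost without replicate 1 or 2 of either strain (adjusted p up to 0.0833). Of 15 C/EBP targets, 6 rose, 1 fell and 8 did not pass, with a median of 0.64. In either direction 46.7% of this list passed, beside the same 20.2% of all genes tested. The shares of both target lists are a description, as the lists were chosen with earlier results of these data known. The cytokine genes Il6 and Tnf rose by 2.29 and 1.30 and the prostaglandin synthase gene Ptgs2 by 1.37. Nos2, the inducible nitric oxide synthase, fell by 1.55, from 123 to 149 counts in MRL/mpj to 39 to 45 in MRL/lpr. The granule genes Elane and Mpo, which C/EBP factors drive in granulocyte precursors, had log2 fold changes of -0.03 each and did not pass.

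Of 20 homeostatic microglia genes, many of which depend on Sall1, 4 rose, 8 fell and 8 did not pass, with a median log2 fold change of -0.16. In either direction 60.0% of this list passed, beside 20.2% of all genes tested. This share too is a description of a list chosen with earlier results of these data known. Fcrls, an Fc receptor-like gene of microglia, fell by 1.76 (SE 0.06, edgeR adjusted p = 1.61e-07), with 19037 to 20967 counts in MRL/lpr and 73973 to 79508 in MRL/mpj. Gpr34, a receptor for lysophosphatidylserine, fell by 0.48. Rhob, a small GTPase, rose by 0.66 and Golm1 by 0.40. Tmem119 and Siglech had log2 fold changes of -0.05 and 0.07 and did not pass. With a minimum of 2-fold added to the test, 1 of the 8 lower genes was left, and 8.34% of all genes tested passed in either direction.

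**Figure D5:**
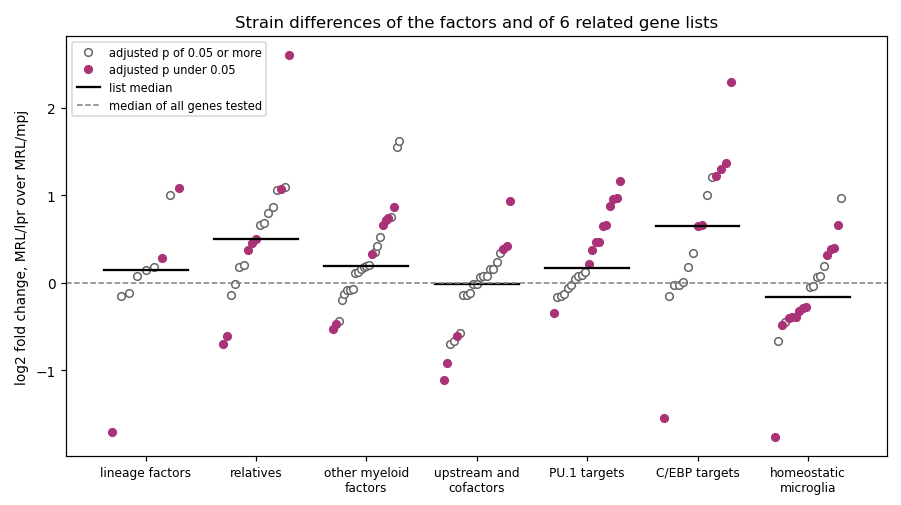
Log2 fold change of MRL/lpr over MRL/mpj for each tested gene of the 9 factors and of 6 related lists. Filled points passed the test, black lines are list medians and the dashed line is the median of all genes tested. The lists of C/EBP targets and of relatives have the highest medians, 0.64 and 0.49, and the homeostatic list the lowest, -0.16.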

How the data were processed

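RNA from CD11b-selected brain cells was sequenced as paired reads of 150 bp, with 3 libraries per strain. The study's methods describe trimming with Cutadapt, alignment with HISAT2 and testing with DESeq2 (|log2FC| of at least 1 and q under 0.05). The submitters' processing notes name cutadapt 1.9.3, HISAT2 2.0.4, Cufflinks, Cuffdiff 2.2.1 and GRCm38. The counting tool is not given in the sources used here. The authors deposited raw whole-number counts for each Ensembl gene, and FPKM of single libraries. Of counts from 1 to 20, 40.4% were multiples of 4, so small counts may stand for fewer reads. Symbols and coordinates came from GENCODE M21 on GRCm38.

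Genes were filtered with filterByExpr (minimum count 10, minimum total 15), scaled with TMM and tested across all genes with edgeR 4.0.16 in R 4.3.3 (robust quasi-likelihood fit, Benjamini-Hochberg adjustment). Standard errors are the log2 fold change divided by the square root of F. A gene passed at an adjusted p-value under 0.05. Ratios of 2 factors within a library were compared with exact permutation tests in scipy 1.17.1. The main fit was tried on simulated counts with 200 changed genes among 18854 tested. It recovered 57 of 100 changes of 2-fold and 94 of 100 changes of 4-fold, and 17 unchanged genes were also called. With 0 genes changed it made 1 call. A gene that did not pass can therefore still differ by 2-fold. The changed genes were drawn from all genes above a minimum mean count, so this gives no rate for genes at the level of the factors. Of the 6 factors that did not pass, Mef2c had a standard error of 0.36 and the others had 0.05 to 0.09. The squared difference between replicates, divided by its expected value under sampling noise, had a median of 3.92 to 7.80 over genes. Identical libraries would give 0, so no library was a copy of another. Counts that stand for fewer reads would also raise this value. Replicates that share a number did not deviate together (r between -0.04 and -0.02 across genes).

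The members and lists were chosen with earlier results of these data known. Named were the 9 factors, Fas, the 4 largest changes per list among genes that passed without overlap, Irf8, Csf1r, Tgfb1, Tgfbr1 and the most similar genes. Others, such as Mef2d, Cebpd and Tyrobp, were chosen after their values were seen. Some genes that this rule names are not reported here. The alternatives were DESeq2 1.42.0, other scalings and filters, a fit that is not robust, a fold-change minimum, counts divided by 4, limma 3.58.1 on log2(FPKM + 0.1), a replicate block, and fits that leave out 1 library at a time.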

Additional observations from a re-analysis of the deposited data

How the results depend on the processing

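Over 18 alternatives, 141 of 162 values of the 9 factors kept their direction and their side of the threshold. Mef2a changed sign with scaling by library size only (-0.0407) and with limma on FPKM (-0.0463). Scaling by library size only moved the median log2 fold change of all genes tested from -0.01 to -0.13, and limma on FPKM moved it to -0.12. The number of factors that were higher went from 2 to 1 with upper quartile scaling, library size only, limma on FPKM, a minimum of 2-fold or a replicate block, and ranged from 1 to 4 without 1 library. The number that were lower went from 1 to 3 with library size only and with limma on FPKM, and ranged from 1 to 3 without 1 library. With the replicate block, PU.1 targets that were lower went from 1 to 0, and no other list count moved by over 1.5 times. The replicate numbers pair nothing that the labels name, and 0 of the 3 same-number pairs had a correlation above 0. With the 2-fold minimum, higher genes went to 2 relatives, 0 other myeloid factors, 0 upstream genes, 1 PU.1 target and 0 homeostatic genes, and lower genes to 0 relatives, 0 other factors, 1 upstream gene, 0 PU.1 targets and 1 homeostatic gene. Of all genes tested, 8.34% passed with this minimum in either direction. With library size only, lower genes went to 7 upstream genes, 3 PU.1 targets and 2 C/EBP targets, and with limma on FPKM to 5, 3 and 2. Without 1 library, lower relatives ranged from 1 to 2, lower PU.1 targets from 0 to 2 and lower C/EBP targets from 1 to 2. Causes of these moves were not tested. All factors had at least 1857 counts in each library.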

Other observations

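The chromosomal neighbours of the factors were looked at beyond the comparisons above. Within 500 kb of the 9 genes, 86 neighbouring genes were tested, and 8 were higher and 9 were lower in MRL/lpr by edgeR's test, which is 19.8% beside 20.2% of all genes tested. Around Sall3 on chromosome 18, 5 neighbours were tested and 1 of them, Atp9b, passed, with a log2 fold change of 0.52 in the opposite direction to Sall3. Around Runx1 on chromosome 16, none of 7 neighbours was higher and 3 were lower. These were Kcne2, Clic6 and Rcan1, with log2 fold changes of -2.54, -1.45 and -0.40, and Clic6 is on the list of choroid plexus markers. The C/EBP gene Cebpg is a neighbour of Cebpa on chromosome 7 and fell by 0.70, while Cebpa had a log2 fold change of 0.15. Of the 17 genes tested near Cebpb on chromosome 2, 3 were higher and 1 was lower, with B4galt5 at 0.88 and Ptgis at -1.95. The single tested neighbours of Mef2c and of Maf did not pass.

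Single libraries stood apart for other genes of the lists as well. MRL/lpr replicate 2 was more than 2-fold below both other MRL/lpr libraries for Tlr4, Nrros and Maff, and more than 2-fold above them for Cx3cr1. MRL/mpj replicate 1 was low for Olfml3 and Cebpd, replicate 2 for Tlr4 and replicate 3 for Smad2.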
